A study of Mus musculus with 9 samples.

Results

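The 3 Tribbles genes Trib1, Trib2 and Trib3 and their relative Stk40 were followed across the prelimbic cortex of 9 mice. They are 4 of the 55335 rows of the deposited count table, matched by gene symbol, and each symbol occurs in a single row. The set was selected on its measured pattern as well as by kinship: earlier results of these data had placed Trib1 among the largest changes after nerve injury. The group differences that involve SNI/saline mice are therefore given as descriptions, without a p for those of the 4 genes that passed the test, and nothing is supported with them. The Sham/saline levels were part of that pattern too, so differences between SNI/R-HNK and Sham/saline mice are not independent of the selection.

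There were 3 groups of 3 mice, all sampled on day 14 after surgery. SNI/R-HNK mice had spared nerve injury, a lesion of branches of the sciatic nerve that models neuropathic pain, and were given R-HNK, a ketamine metabolite, at 10 mg/kg. SNI/saline mice had the same injury and were given saline, and Sham/saline mice were the control for surgery and drug. All groups share the tissue, the prelimbic area of the medial prefrontal cortex, and bulk RNA sequencing with 1 library per mouse. Strain, sex, age and the time between dosing and sampling are not given in the sources used here. In bulk tissue, fewer cells of a type and less RNA per cell cannot be told apart.

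Tribbles proteins are pseudokinases: they keep the fold of a protein kinase but have little or no catalytic activity, and act as scaffolds. Trib1 and Trib2 bring the ubiquitin ligase COP1 to substrates such as the transcription factor C/EBP alpha, which is then degraded, and they also bind MAP kinase kinases. Trib3 is a target of the stress transcription factors ATF4 and CHOP and is known for binding Akt. Stk40 is a more distant pseudokinase that also binds COP1. The name comes from the fruit fly gene tribbles, which slows cell division by promoting the breakdown of String, a Cdc25 phosphatase.

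On GRCm38, Trib1 (ENSMUSG00000032501.9) lies on the forward strand of chromosome 15 from 59648350 to 59657099. Trib2 (ENSMUSG00000020601.8) lies on the reverse strand of chromosome 12 from 15791727 to 15816922. Trib3 (ENSMUSG00000032715.9) lies on the reverse strand of chromosome 2 from 152337422 to 152344032. Stk40 (ENSMUSG00000042608.15) lies on the forward strand of chromosome 4 from 126103957 to 126141029. No gene on the opposite strand overlaps any of them in GENCODE M21. The microRNA gene Mir6387 lies inside Trib2 and had at most 5 counts in any library.

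The upstream sequences of Trib3 and Stk40 are shown because these 2 genes moved in opposite directions. Each is the 250 bases before the RefSeq transcription start on GRCm38.p6, written 5′ to 3′ on the gene's strand, chr2:152344061-152344310 for Trib3 and chr4:126103707-126103956 for Stk40. Capitals mark CGTCA, the core of the cyclic AMP response element, on either strand and, in Trib3, a match to TGNTGCAAT, which resembles the composite site bound by C/EBP and ATF factors such as CHOP and ATF4.
Trib3: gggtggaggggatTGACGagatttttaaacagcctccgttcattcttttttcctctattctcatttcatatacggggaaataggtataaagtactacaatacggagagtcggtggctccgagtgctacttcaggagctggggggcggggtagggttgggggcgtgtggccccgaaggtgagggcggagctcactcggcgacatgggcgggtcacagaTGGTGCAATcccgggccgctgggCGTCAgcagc
Stk40: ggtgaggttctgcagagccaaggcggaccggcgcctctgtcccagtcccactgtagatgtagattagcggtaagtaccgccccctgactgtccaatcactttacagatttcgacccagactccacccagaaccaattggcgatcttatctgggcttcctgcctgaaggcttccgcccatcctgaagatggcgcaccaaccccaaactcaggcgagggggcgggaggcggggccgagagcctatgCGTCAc

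Trib2, Trib3 and Stk40, 3 of the 4 genes, were matched in the RefSeq promoter table. Motifs were searched on both strands in the 300 bases from 250 before to 50 after each start. Trib3 had 2 CGTCA cores, Stk40 had 1 and Trib2 had 0, while 20.8% of all 32851 promoters of that length held at least 1. TGNTGCAAT, a pattern chosen after the Trib3 sequence was read, was found in Trib3 and in 0.673% of all promoters. The stricter TGATGCAAT was in none of the 3 and in 0.192% of all promoters. None of the 3 held the full element TGACGTCA (1.79% of all promoters), the AP-1 site TGANTCA (7.81%) or the EGR site GCGNGGGCG (5.55%). The Trib2 window was 71.0% G and C with 40 CpG, against a median of 52.7% and 7 CpG over all promoters.

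Library totals ran from 53624337 to 73586375 counts. Levels are in CPM, counts scaled to the same library total after TMM scaling. The 12 cortical excitatory neuron markers were all detected in every library, with summed levels of 5575 to 5696 CPM in SNI/R-HNK, 5740 to 6327 CPM in SNI/saline and 5062 to 6071 CPM in Sham/saline mice. Tissue content differed between libraries. The 15 markers of medium spiny neurons, the main neurons of the striatum and not of the cortex, summed to different levels: SNI/R-HNK replicates 1, 2 and 3 gave 721.8, 288 and 1026 CPM, SNI/saline replicates 301, 259.8 and 266 CPM, and Sham/saline replicates 301, 1629 and 1531 CPM. SNI/R-HNK replicates 1 and 3 and Sham/saline replicates 2 and 3 thus stand apart, and results are also given for the other 5 libraries alone, here called the low-striatal libraries. Of the striatal markers only Isl1, Six3 and Sh3rf2 had a count of 0 in any library, all of them low-striatal ones. They are 1 SNI/R-HNK, 3 SNI/saline and 1 Sham/saline library, so single libraries are assumed to vary like the SNI/saline group.

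Trib1, the scaffold for COP1 best known in liver and myeloid cells, had the widest range of the 3 well-expressed genes. It measured 49.5, 57.5 and 58.9 CPM in SNI/saline mice, against 21.8, 19.6 and 18.3 CPM in Sham/saline mice. Every SNI/saline library lay above every Sham/saline library, with no overlap. The log2 fold change was 1.48 ± 0.10 (standard error, SE), a 2.78-fold higher level after injury. It was 1.35 in the low-striatal libraries, and 1.42 to 1.57 when each of the 9 libraries was left out in turn.

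With R-HNK, Trib1 measured 27.7, 25.5 and 29.6 CPM, against the same 49.5, 57.5 and 58.9 CPM in SNI/saline mice. The SNI/R-HNK libraries all lay below the lowest SNI/saline library. The fitted log2 fold change was -1.003 ± 0.10 (SE), and -1.12 in the low-striatal libraries. Set against Sham/saline mice, the mean was 27.6 ± 2.04 CPM in SNI/R-HNK mice and 19.9 ± 1.79 CPM in Sham/saline mice (SD, n = 3 each). These groups did not overlap either. The Sham/saline levels of Trib1 were part of its selection, so this comparison is not independent of it. On the log2 scale the difference was 0.47 (95% interval 0.26 to 0.68) and did not pass the test. It was 0.23 in the low-striatal libraries, where SNI/R-HNK replicate 2 at 25.5 CPM stands against Sham/saline replicate 1 at 21.8 CPM.

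Trib2, which also brings C/EBP alpha to COP1 and has been studied as an oncogene in leukaemia, moved in the same directions by less. It measured 50.8, 58.0 and 58.5 CPM in SNI/saline mice, against 43.1, 38.3 and 37.9 CPM in Sham/saline mice. The groups did not overlap, and the closest libraries, SNI/saline replicate 1 and Sham/saline replicate 1, were 50.8 and 43.1 CPM. Between the groups the log2 fold change was 0.49 ± 0.09 (SE), a 1.40-fold higher level. In SNI/R-HNK mice Trib2 measured 37.2, 41.8 and 35.3 CPM, below every SNI/saline library, with a log2 fold change of -0.55 ± 0.09 (SE).

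Both Trib2 differences depended on single libraries for their side of the threshold. The higher level in SNI/saline than in Sham/saline mice missed it without Sham/saline replicate 2 or 3 or SNI/saline replicate 2 or 3. The lower level in SNI/R-HNK than in SNI/saline mice missed it without Sham/saline replicate 2, SNI/saline replicate 2 or 3, or SNI/R-HNK replicate 1 or 3. In the low-striatal libraries the log2 fold changes were 0.38 and -0.42 and neither passed.

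Trib2 levels of SNI/R-HNK and Sham/saline mice overlapped. The means were 38.1 ± 3.36 CPM in SNI/R-HNK mice and 39.8 ± 2.88 CPM in Sham/saline mice (SD, n = 3 each). The difference was -0.06 on the log2 scale, with a 95% interval of -0.26 to 0.13 (edgeR adjusted p = 1).

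Stk40, the COP1-binding relative outside the Tribbles family, varied least within groups. It measured 50.1, 51.2 and 52.6 CPM in SNI/saline mice, against 34.1, 31.0 and 31.6 CPM in Sham/saline mice. The SD was 1.94% to 5.18% of the mean in the 3 groups, and the gap between the groups was wider than either range. The comparison gave a log2 fold change of 0.67 ± 0.07 (SE), a 1.59-fold higher level.

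In SNI/R-HNK mice Stk40 measured 31.0, 32.0 and 32.1 CPM, below all SNI/saline libraries, with a log2 fold change of -0.69 ± 0.07 (SE). In the low-striatal libraries the 2 values were 0.59 and -0.68, and the first missed the threshold. Stk40 overlapped between groups at 31.7 ± 0.616 CPM in SNI/R-HNK mice and 32.2 ± 1.67 CPM in Sham/saline mice (SD, n = 3 each). Their log2 difference was -0.02, with a 95% interval of -0.17 to 0.13 (edgeR adjusted p = 1).

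Trib3, the stress-induced member, went the other way and was scarce. Its counts were 10, 17 and 12 in SNI/saline mice, against 38, 48 and 72 in Sham/saline mice, or 0.174, 0.283 and 0.187 CPM in SNI/saline mice against 0.65, 0.836 and 1.31 CPM in Sham/saline mice. The groups did not overlap, although the Sham/saline libraries differed from each other by more than those of any other group. Summed over 3 libraries the counts were 39 in SNI/saline mice (95% exact Poisson interval 27.7 to 53.3, counting error only) and 158 in Sham/saline mice (134 to 185). Trib3 had a log2 fold change of -2.11 ± 0.42 (SE), a 4.31-fold lower level after injury.

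With R-HNK, Trib3 had 53, 38 and 46 counts, or 0.716, 0.588 and 0.718 CPM. All 3 values lay above every SNI/saline library. The sum was 137 counts (115 to 162), the log2 fold change against SNI/saline mice was 1.64 ± 0.42 (SE), and it did not pass the test (edgeR adjusted p = 0.322). The groups overlapped at 0.674 ± 0.0744 CPM in SNI/R-HNK mice and 0.932 ± 0.340 CPM in Sham/saline mice (SD, n = 3 each). Their log2 difference was -0.46, with a wide 95% interval of -1.31 to 0.38 (edgeR adjusted p = 1).

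Trib3 passed between SNI/saline and Sham/saline mice in 2 of 9 fits with 1 library omitted, namely without Sham/saline replicate 1 or SNI/R-HNK replicate 2. In the low-striatal libraries the log2 fold change was -1.58 and did not pass. There the counts were 38 in SNI/R-HNK replicate 2, 10, 17 and 12 in SNI/saline mice and 38 in Sham/saline replicate 1.

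**Figure D1:**
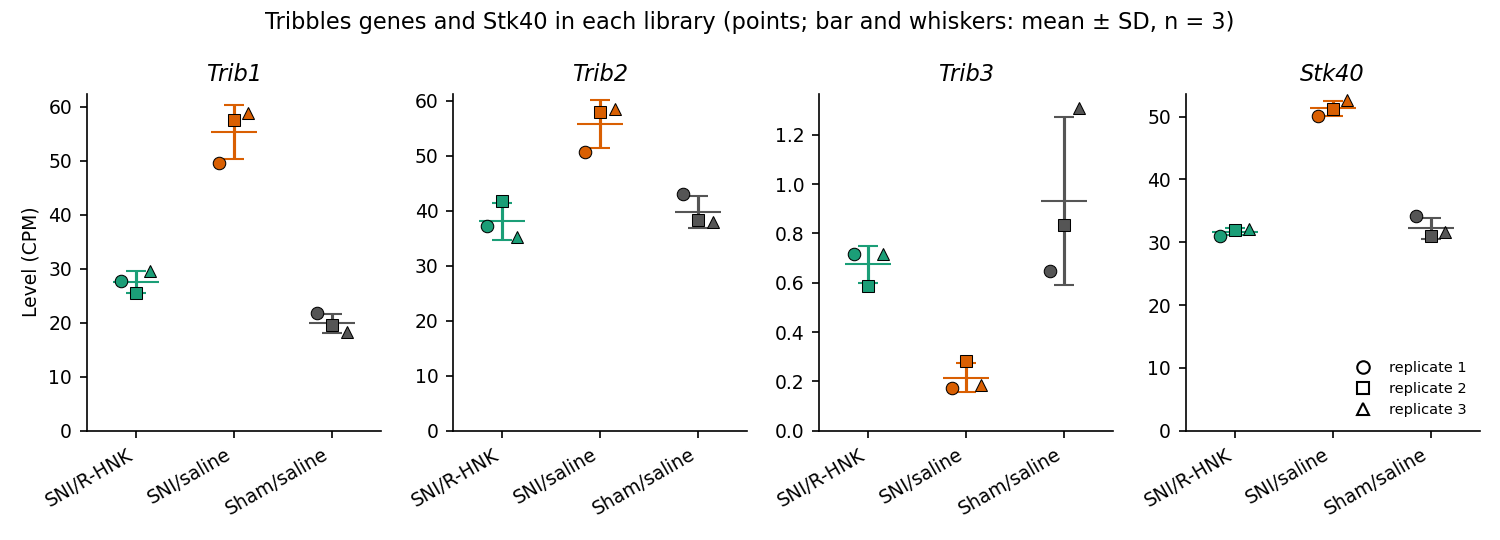
Level in CPM (vertical axes, each starting at 0) of Trib1, Trib2, Trib3 and Stk40 in the 9 libraries, by group from left to right SNI/R-HNK, SNI/saline and Sham/saline. Points are libraries, with the replicate number as the shape, and horizontal bars with whiskers are the mean ± SD of 3 mice. SNI/saline libraries are the highest for Trib1, Trib2 and Stk40 and the lowest for Trib3, without overlap.

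Counted over the set, 4 of 4 genes passed between SNI/saline and Sham/saline mice, where 1.07% of all 21765 genes tested passed. In that comparison 4 of 4 had groups that did not overlap, against 21.7% of all genes. For SNI/R-HNK against SNI/saline mice 3 of 4 passed, against 0.119% of all genes, and 4 of 4 did not overlap, against 13.7%. Since the genes were chosen with these changes known, nothing is read from these counts. In the low-striatal libraries 1 of 4 passed in the first comparison, Trib1, where 0.368% of all genes did, and 2 of 4 in the second, Trib1 and Stk40, where 0.158% did. Both comparisons use the SNI/saline libraries, so a high or low value there enters both with opposite sign.

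Of the 4 genes 0 passed between SNI/R-HNK and Sham/saline mice in edgeR, where 0.00459% of all genes did. Trib1 alone had an unadjusted p under 0.05 in edgeR, as 3.53% of all genes did, and passed with DESeq2, as 0.046% of the genes to which DESeq2 gave an adjusted p did. None of the 4 passed in the low-striatal libraries, where 0.107% of all genes did. It was also the 1 gene of the 4 whose groups did not overlap, against 8.85% of all genes. Trib1 thus lay between its SNI/saline and Sham/saline levels in R-HNK mice, while Trib2, Stk40 and Trib3 overlapped their Sham/saline levels. Whether Trib1 and the other 3 genes differ in this respect was not tested.

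**Figure D2:**
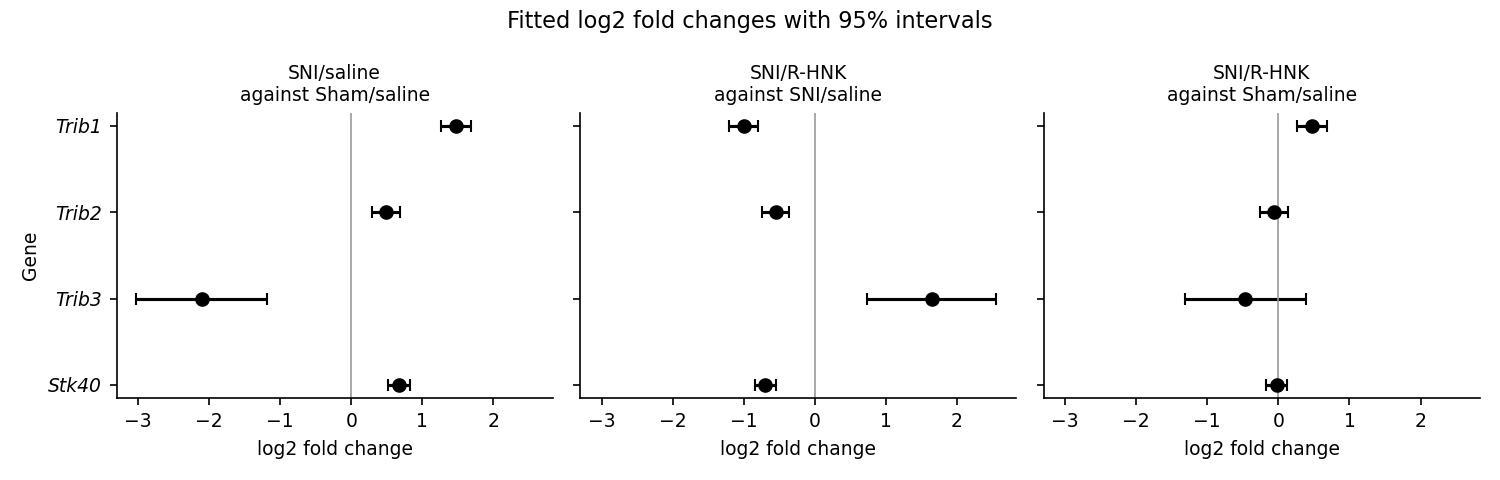
Fitted log2 fold changes (horizontal axis) of Trib1, Trib2, Trib3 and Stk40 in 3 comparisons, 1 per panel, with 95% intervals as whiskers. Trib3 lies on the other side of 0 from the other genes in the first and second panels, and in the third only the interval of Trib1, from 0.26 to 0.68, lies clear of 0.

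Levels of different genes were compared per kilobase of annotated exon. In SNI/R-HNK mice Trib2 had 8.78 ± 0.776, Stk40 7.70 ± 0.150, Trib1 4.42 ± 0.327 and Trib3 0.317 ± 0.0350 CPM per kilobase (SD, n = 3). In SNI/saline mice the order was the same, with Trib2 at 12.9 ± 0.998, Stk40 at 12.5 ± 0.299, Trib1 at 8.85 ± 0.809 and Trib3 at 0.101 ± 0.0282 CPM per kilobase. In Sham/saline mice Trib2 had 9.17 ± 0.664, Stk40 7.83 ± 0.406, Trib1 3.18 ± 0.286 and Trib3 0.438 ± 0.160 CPM per kilobase. Trib2 and Stk40 overlapped in SNI/saline mice, so their order there is within the spread, while in the other groups every Trib2 library lay above every Stk40 library. The exon lengths behind these levels were 6248 bases for Trib1, 4335 for Trib2, 2125 for Trib3 and 4117 for Stk40, counted over all annotated transcripts of a gene.

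The neighbours and lists that follow are set beside shares over all genes. In SNI/saline against Sham/saline mice 16.6% of all genes had an unadjusted p under 0.05 in edgeR, and DESeq2 called 6.76% of the genes to which it gave an adjusted p. In SNI/R-HNK against SNI/saline mice the shares were 7.47% and 0.644%.

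Genes next to the 4 members were compared as well. Of the 8 nearest protein-coding genes, 1 on each side of each member, 6 were tested, and none passed in any comparison with edgeR or with DESeq2. The protein-coding gene closest to a member was Rbck1, a ubiquitin ligase subunit 4769 bases from Trib3. It measured 89.5 ± 6.75 CPM in SNI/saline mice and 99.95 ± 7.08 CPM in Sham/saline mice (SD, n = 3 each), a log2 fold change of -0.16 ± 0.09 (SE, edgeR adjusted p = 0.41). Lsm10, which encodes a protein of the U7 snRNP that processes histone mRNA, lies 5373 bases from Stk40 and had a log2 fold change of -0.03 ± 0.18 (SE, edgeR adjusted p = 0.951). Gm14164, a noncoding transcript that begins 1637 bases from Trib3 on the other strand, averaged 0.690 ± 0.130 CPM in SNI/saline mice and 1.60 ± 0.514 CPM in Sham/saline mice (SD, n = 3 each). Its log2 fold change was -1.21 ± 0.43 (SE) and did not pass (edgeR adjusted p = 0.188). Among the low-striatal libraries Gm14164 had 28 counts in SNI/R-HNK replicate 2, 48, 35 and 42 in SNI/saline mice and 61 in Sham/saline replicate 1. Unadjusted p were under 0.05 for 3 of the 7 neighbours in SNI/saline against Sham/saline mice, Gm14164, Nsmce2 and Nrsn2, beside 16.6% of all genes, and for 0 in the other comparisons. The 3 of 7 include Gm14164, which was added by name, outside the rule of nearest protein-coding genes. Other noncoding neighbours were not compared, among them Gm5432 beside Trib2, with 0 to 24 counts per library.

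The machinery the 4 proteins work with showed no gene past edgeR's threshold in any comparison. The COP1 ubiquitin ligase machinery list had 13 genes, among them E2 enzymes and COP9 signalosome genes as well as ligase subunits. Of the 13, 0 rose and 0 fell between SNI/saline and Sham/saline mice, with a median log2 fold change of 0.10 beside -0.02 over all genes tested. The unadjusted p was under 0.05 for 1 of the 13, beside 16.6% of all genes. It was Ube2e2, an E2 enzyme that was also the 1 called higher by DESeq2. Ube2e2 had a log2 fold change of 0.26 ± 0.07 (SE, edgeR adjusted p = 0.102). Cop1 itself had 0.10 ± 0.10 (SE, edgeR adjusted p = 0.652). Cops5, the catalytic subunit of the COP9 signalosome, had 0.17 ± 0.08, and the E2 enzyme Ube2e1 had 0.12 ± 0.09 (SE). In SNI/R-HNK against SNI/saline mice 0 of 13 passed with edgeR or DESeq2, 1 had an unadjusted p under 0.05, beside 7.47% of all genes, and the median was -0.06 beside 0.01.

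Among 27 substrates and partners of Tribbles proteins and COP1, 0 passed in edgeR in any comparison, with a median of 0.04 in SNI/saline against Sham/saline mice. There 4 were higher and 2 lower at an unadjusted p under 0.05, beside 16.6% of all genes in either direction. DESeq2 called 3 higher, Rara, Etv5 and Cebpa, beside 6.76% of all genes. Rara, the retinoic acid receptor alpha, which Trib1 binds, had a log2 fold change of 0.71 ± 0.16 (SE, edgeR adjusted p = 0.0548). Etv5, an ETS factor that COP1 degrades, had 0.40 ± 0.09 (SE, edgeR adjusted p = 0.0579). Cebpa, which encodes C/EBP alpha, had 0.47 ± 0.13 (SE, edgeR adjusted p = 0.108). In SNI/R-HNK against SNI/saline mice Rara had -0.67 ± 0.16, Etv5 -0.31 ± 0.09 and Cebpa -0.20 ± 0.13 (SE). DESeq2 called Rara lower there, and edgeR called 0, with 1 gene higher and 3 lower at an unadjusted p under 0.05, beside 7.47% of all genes. Since COP1 acts on proteins, RNA levels do not measure the degradation of these substrates.

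For Trib3 the list of interest is that of ATF4 and CHOP targets in the integrated stress response. Of 37 measured genes 0 passed in edgeR in any comparison, and the median in SNI/saline against Sham/saline mice was 0.04. At an unadjusted p under 0.05, 10 were higher and 4 lower, beside 16.6% of all genes in either direction. The 10 were Atf4, Atf3, Asns, Slc7a1, Slc3a2, Nars, Gars, Sars, Wars and Aars, and the 4 were Phgdh, Slc6a9, Slc7a11 and Vldlr. DESeq2 called Atf4 and Wars higher and Phgdh, Slc6a9 and Slc7a11 lower, beside 6.76% of all genes. Atf4, the transcription factor itself, had a log2 fold change of 0.32 ± 0.08 (SE, edgeR adjusted p = 0.0802), a sign opposite to that of Trib3. Slc6a9, a glycine transporter, had -0.35 ± 0.08 (SE, edgeR adjusted p = 0.0579), and Phgdh, an enzyme of serine synthesis, had -0.37 ± 0.11 (SE, edgeR adjusted p = 0.117). Ddit3, which encodes CHOP, averaged 21.3 ± 0.455 CPM in SNI/saline mice and 20.0 ± 1.31 CPM in Sham/saline mice (SD, n = 3 each), a log2 fold change of 0.09 ± 0.11 (SE, edgeR adjusted p = 0.741). Chac1, another target, had -0.14 ± 0.16 (SE, edgeR adjusted p = 0.717). Cop1, Ddit3, Chac1 and the genes named only as DESeq2 calls or only for an unadjusted p were picked after their values were seen. With R-HNK against SNI/saline mice the list had 2 genes higher and 3 lower at an unadjusted p under 0.05, beside 7.47% of all genes, with 0 called by edgeR or DESeq2 and a median of -0.06.

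Other pseudokinase genes gave a further point of reference. Of 37 measured 0 passed in edgeR in any comparison, and the median was -0.08 in SNI/saline against Sham/saline mice. At an unadjusted p under 0.05, 1 was higher and 5 lower, close to the 16.6% of all genes. DESeq2 called Ephb6 higher and Npr1 and Ilk lower, beside 6.76% of all genes. Npr1, a natriuretic peptide receptor with a pseudokinase domain, had -1.06 ± 0.25 (SE, edgeR adjusted p = 0.0684), Ilk, the integrin-linked pseudokinase, had -0.34 ± 0.10 and Ulk4 had -0.58 ± 0.20 (SE). With R-HNK against SNI/saline mice the median was 0.07, 2 were higher at an unadjusted p under 0.05, beside 7.47% of all genes, and edgeR and DESeq2 called 0. Against Sham/saline mice, SNI/R-HNK mice had 0 genes of the 4 lists called by edgeR or DESeq2, and the 4 list medians lay between 9.79e-05 and 0.023. At an unadjusted p under 0.05 there was 1 gene in the stress response list, 1 in the pseudokinase list and 0 in the other 2, beside 3.53% of all genes.

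**Figure D3:**
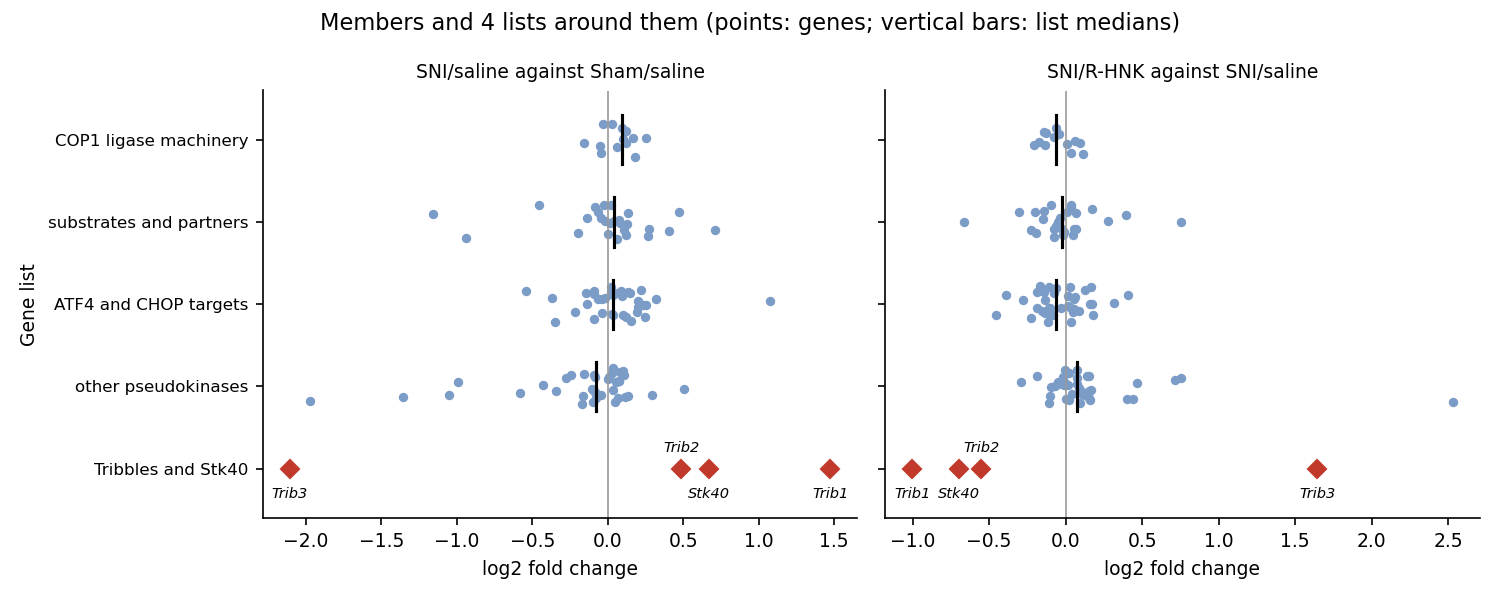
Log2 fold changes (horizontal axes) of the genes in 4 lists around the Tribbles proteins, with SNI/saline against Sham/saline on the left and SNI/R-HNK against SNI/saline on the right. Blue points are genes, black bars are list medians and red diamonds are Trib1, Trib2, Trib3 and Stk40. The list medians lie between -0.08 and 0.10.

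Over the 9 libraries, the genes most like each member were ranked by Pearson's r of log2 CPM. The pool was the genes with a mean log2 CPM of 0 or more, without symbols of predicted genes or clones. It held 13499 genes, or 13500 for Trib3, which itself averaged below 0. The SNI/saline libraries stand apart from the other 6 for these genes, and r is given here as a description of how alike the patterns are, over n = 9. Trib1 was most like Gadd45a, Per1, Nr4a3, Nab2, Dusp6 and Uap1, with r of 0.99 down to 0.976. Gadd45a is a DNA damage response gene, Per1 a circadian clock gene, Nr4a3 an activity-induced nuclear receptor and Dusp6 a phosphatase of ERK. Stk40 was most like Sertad1, Slc25a25, Spry4, Csrnp1, Midn and Tent4a (0.994 down to 0.956), of which Spry4 restrains receptor tyrosine kinase signalling. Trib2 was most like Hsd17b7, Fam43a, Lrrc75a, Armc6, Tent4a and Stk40 (0.975 down to 0.954). By Spearman's rho, 2 of the 6 stayed among the closest 6 for Trib1, 2 for Trib2 and 1 for Stk40. For Trib2, Tent4a then ranked 545 and Stk40 677, and for Stk40, Csrnp1 ranked 462 and Tent4a 363.

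The 6 genes most like Trib3 were Cdca7, Dlx2, Igfbpl1, Chd7, Dchs1 and Cand2, with r of 0.981 down to 0.963, and 1 of them, Chd7, stayed among the closest 6 by Spearman's rho. The ranking took positive r only, so a gene low in SNI/saline mice was matched to genes low there. Cdca7, Dlx2 and Igfbpl1 are also among the immature neuron markers described next. The likeness and the marker counts are not independent, as both rest on genes low in the same SNI/saline libraries. Igfbpl1 and Dlx2 are known in immature neurons and interneuron development, and Chd7 is a chromatin remodeller of neural progenitors.

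Markers of immature neurons, cells that migrate to the olfactory bulb near the medial prefrontal cortex, moved with these differences. The marker lists were chosen with earlier results of these data known, so their counts are given as a description. Of the 10 immature neuron markers, 9 fell in SNI/saline against Sham/saline mice and 0 rose in edgeR, where 1.07% of all genes passed. Their median log2 fold change was -1.16. The exception, Sox11, had -0.74 ± 0.18 (SE, edgeR adjusted p = 0.0773). Igfbpl1 had the largest fall, -3.05 ± 0.37 (SE), and Dlx2 had -1.31 ± 0.16 (SE). The summed level of the 10 was 198 to 239 CPM in SNI/R-HNK, 131 to 135 CPM in SNI/saline and 229 to 269.5 CPM in Sham/saline mice, and no marker was at 0 in any library. With R-HNK against SNI/saline mice 6 of 10 rose and 0 fell, where 0.119% of all genes passed, with a median of 0.86. In the low-striatal libraries 4 of 10 fell in the first comparison, where 0.368% of all genes passed, and 4 of 10 rose in the second, where 0.158% did, an analysis added after seeing the data. SNI/saline libraries were the lowest for these markers and for Trib3, and the highest for Trib1, Trib2 and Stk40, so marker content and group cannot be told apart for any of the 4 genes. The cortical excitatory score, the mean log2 CPM of those markers relative to all libraries, also set SNI/saline mice apart. It was 0.088 to 0.172 there and at most 0.028 elsewhere, in Sham/saline replicate 1. Over n = 9, Pearson's r with it was 0.864 for Trib1, 0.822 for Trib2, -0.866 for Trib3 and 0.789 for Stk40. With the immature neuron score, r was -0.982, -0.897, 0.972 and -0.967 in the same order. Other marker lists were compared between SNI/saline and Sham/saline mice. In edgeR 3 of 10 for fibroblasts, 1 of 10 for astrocytes and 1 of 10 for interneurons fell. For cortical excitatory neurons 2 of 12 rose, and for striatal neurons 0 of 15 passed, beside 1.07% of all genes. For oligodendrocytes, oligodendrocyte precursors, microglia and endothelial cells 0 passed. At an unadjusted p under 0.05, 8 of 10 were lower for fibroblasts, 7 of 10 for astrocytes and 12 of 15 for striatal neurons. For oligodendrocyte precursors 3 of 8 were lower, for microglia and endothelial cells 1 of 10 each, and for oligodendrocytes 0 of 10. For interneurons 4 were lower and 2 higher, and for cortical excitatory neurons 1 was lower and 5 higher, beside 16.6% of all genes. DESeq2 called 9 striatal markers lower, beside 6.76% of all genes, and the median log2 fold change of the striatal list was -2.35. In SNI/R-HNK against SNI/saline mice no marker of these other lists passed in edgeR, and the striatal median was 1.53. At an unadjusted p under 0.05 there, 4 of 10 were higher for fibroblasts, 3 of 15 for striatal neurons and 2 of 10 for astrocytes. For cortical excitatory neurons 3 of 12 were lower, beside 7.47% of all genes. The remaining lists had at most 1 higher and at most 1 lower. With the striatal marker score as a covariate, the log2 fold changes between SNI/saline and Sham/saline mice were 1.45 for Trib1 and 0.61 for Stk40, which passed, and 0.33 for Trib2 and -1.66 for Trib3, which did not. The SNI/saline libraries all scored -1.55 to -1.44, so this adjustment rested mainly on the other groups. Neither the immature neuron score nor the cortical excitatory score was used as a covariate. The part of the other cell types in the values of the 4 genes was not tested.

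**Figure D4:**
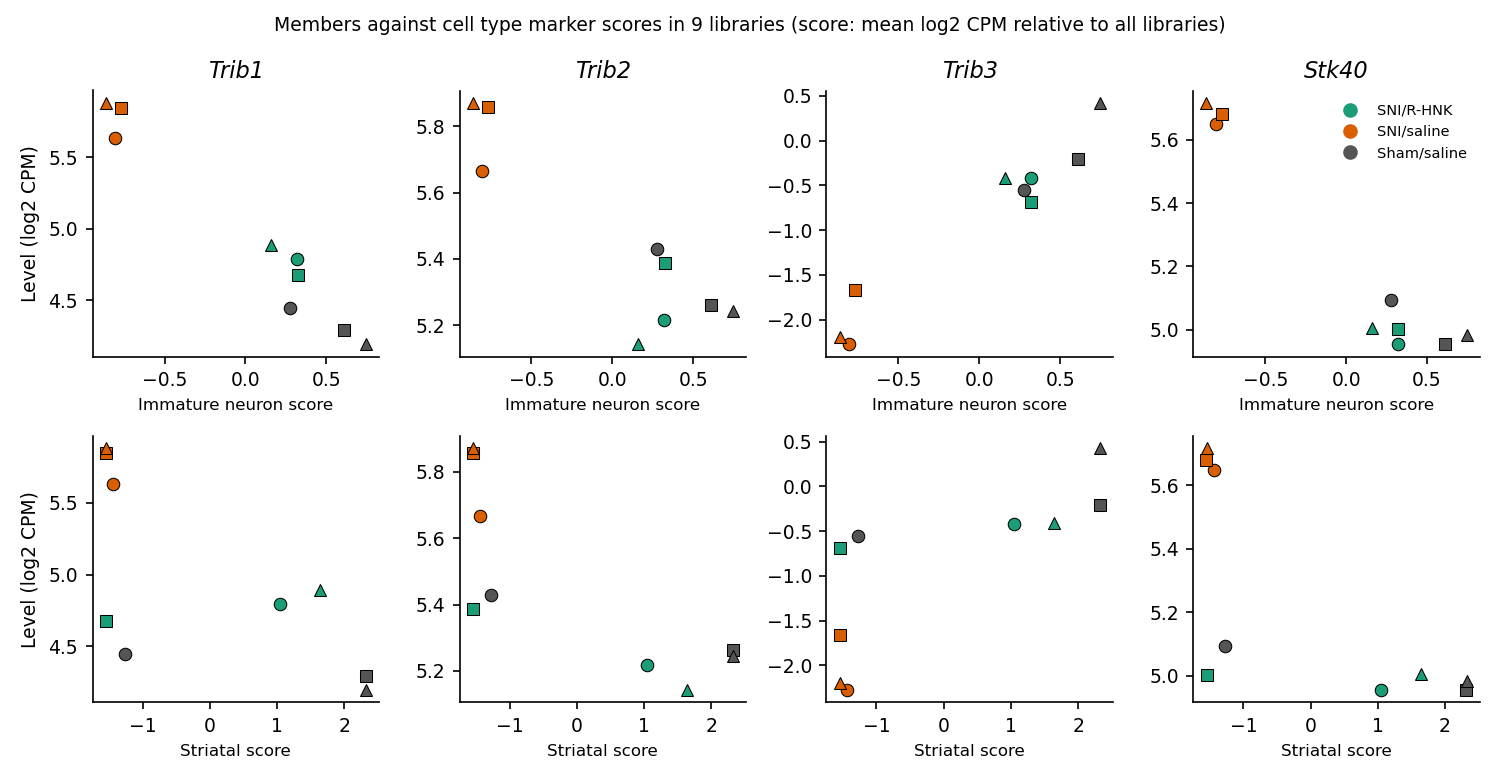
Level in log2 CPM (vertical axes) of Trib1, Trib2, Trib3 and Stk40, against a score of immature neuron markers (top) and of striatal markers (bottom), both the mean log2 CPM relative to all 9 libraries. Colours are groups and shapes are replicate numbers. SNI/saline libraries score -0.86 to -0.77 for immature neurons, apart from the other 6, and low for striatal markers beside SNI/R-HNK replicate 2 and Sham/saline replicate 1.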

How the data were processed

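RNA sequencing counts of 9 prelimbic cortex samples, 3 mice per group, were used. The submitters' processing notes name HISAT2 2.0.5, featureCounts 1.5.0-p3 and mm10. The deposited table holds expected counts per gene symbol as whole numbers, not normalized by the authors, and its name gives StringTie instead. The sources used here do not say whether counting used strand.

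Counts were fitted in R 4.3.3 with edgeR 4.0.16: filterByExpr by group (21765 genes, all 4 members at or above the cutoff of 0.165 CPM in all 9 libraries), TMM scaling, and the robust quasi-likelihood test over all 9 libraries. The threshold was 0.05 after Benjamini-Hochberg adjustment over all genes. SE were worked back from the test statistic. An exact permutation test of 3 against 3 mice cannot go below p = 0.1. The scripts were tested on simulated data. Nothing in the labels ties same-numbered libraries, and the deviations of same-numbered libraries correlated at -0.104 to 0.092. Alternatives were RLE and upper quartile scaling, no filter, DESeq2 1.42.0, a replicate block, the 2 compared groups alone, a striatal marker covariate, and leaving out libraries. Of each list, genes that passed were to be named, filled to 3 by unadjusted p. Likeness used log2 CPM with a prior count of 2 and the 6 highest r. Annotation is GENCODE M21, and promoter sequences are RefSeq's on GRCm38.p6. The members, the lists and the alternatives were chosen with earlier results of these data known.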

Additional observations from a re-analysis of the deposited data

How the results depend on the processing

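Of 204 member values under 17 other settings, 174 kept their direction and side of the threshold, 27 no longer passed, 1 newly passed and 2 turned sign. Trib1 and Stk40 kept both calls with SNI/saline mice under every setting, except Stk40 against Sham/saline mice without the 4 libraries raised in striatal markers (0.59). In SNI/saline against Sham/saline mice, Trib2 and Trib3 missed the threshold with the striatal covariate (0.33 and -1.66) and without the 4 libraries (0.38 and -1.58), and Trib3 with the 2 groups alone (-2.10). Trib2 in SNI/R-HNK against SNI/saline mice missed it with the covariate (-0.44) and without the 4 libraries (-0.42). Trib1 in SNI/R-HNK against Sham/saline mice passed with DESeq2 (0.47). Leaving out 1 library gave 0.46 to 0.57 for Trib2 and -2.35 to -1.78 for Trib3 in SNI/saline against Sham/saline, and -0.62 to -0.50 for Trib2 in SNI/R-HNK against SNI/saline. It gave -0.13 to 0.0075 for Trib2 and -0.0466 to 0.0279 for Stk40 in SNI/R-HNK against Sham/saline, where the sign turned without Sham/saline replicate 1.

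Genes called in SNI/saline against Sham/saline mice were 233, with 370 without a filter, 1185 with DESeq2, 88 with the covariate, 86 without the 4 libraries and 60 (without SNI/saline replicate 3) to 1170 (without Sham/saline replicate 1). In SNI/R-HNK against SNI/saline they were 26, with 140 with DESeq2, 53 with the 2 groups alone and 7 to 56 without the same 2 libraries. In SNI/R-HNK against Sham/saline there was 1, with 10 with DESeq2, 25 without the 4 libraries and 1 to 11 (without Sham/saline replicate 1). The cause of these shifts was not tested. The replicate block, for numbers that do not pair the mice, gave 0.49 and -2.08 for Trib2 and Trib3 in SNI/saline against Sham/saline and -0.55 for Trib2 in SNI/R-HNK against SNI/saline, all 3 past the threshold without it and not with it. It gave 16 genes called in SNI/R-HNK against SNI/saline and 2 in SNI/R-HNK against Sham/saline. Of 24 genes named as most like a member, 6 stayed among the closest 6 by Spearman's rho and 6 in the 5 libraries low in striatal markers.

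Trib3 had 10 to 17 counts in SNI/saline and 38 to 72 in Sham/saline libraries, with an SD of 27.9% and 36.5% of the mean CPM. How much of this spread is counting error was not tested.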
